A study of Mus with 2 samples.

Results

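The cell cycle genes described here are 40 transcripts chosen by name for their known place in the division cycle and kept where the deposited tables held at least 20 counts over both tumor sections. They are 40 of the 32285 features measured and of the 14313 genes that reached the same minimum. All 40 passed, from 365 counts for Ccne2 to 10744 for Hmgb2. Of these, 17 are expressed around the start and during DNA synthesis and are called S-phase genes, and 23 are expressed in G2 and division and are called mitotic genes.

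The data came from Visium, which captures the RNA of a tissue section, here 10 µm thick, on an array of barcoded spots. A unique molecular identifier (UMI) lets every captured molecule be counted once, and a spot can hold several cells of different types. Both sections were cut from tumors that CT26 cells, a mouse colon carcinoma line, had formed under the skin of Balb/c mice aged 6-8 weeks. The control group had 1 section, named Drug_Control and PBS in the labels, and the rIL7 group had 1 section, from a mouse that received 10 µg of recombinant mouse IL7 intraperitoneally on day 11 and again on day 13. The library titles give day 15 for both. With 1 section per group there was no replicate check and no test was run. Every interval below is a 95% interval for counting error only, which leaves out differences between mice, sections and libraries.

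A cell that prepares to divide loads and fires its replication origins, a step that involves cyclin E, the Mcm2 to Mcm7 helicase and the enzymes that supply nucleotides. It then builds up cyclin A and cyclin B with Cdk1, condenses and aligns its chromosomes on a spindle, and separates them once Cdc20 has switched on the anaphase-promoting complex. In a transplanted tumor the carcinoma cells divide, and so can lymphocytes, macrophages and stromal cells, and a spot does not tell these apart. More dividing cells and more transcript per cell cannot be told apart either.

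After filtering, 2219 control spots held 22951678 UMIs and 1950 rIL7 spots held 25729233 UMIs, with medians of 9623 and 12921.5 UMIs per spot. The sections share 1702 spot barcodes, which name positions on the slide and not cells. Levels are given as counts per 1000000 UMIs (CPM). The CT26 transcripts Rpl39l and Baiap2l1 were present in both sections and summed to 1293 CPM (control) and 1043 CPM (rIL7).

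The first comparison asked whether cell cycle transcripts differed between the whole sections. S-phase genes summed to 1427 CPM (1411 to 1442) for the control and to 1525 CPM (1510 to 1540) for rIL7, which is a ratio of 1.07 (1.05 to 1.08). Mitotic genes summed to 1974 CPM (1956 to 1992) and 1969 CPM (1952 to 1986), which is a ratio of 0.997 (0.985 to 1.01). The difference in the S-phase sum was smaller than the spread over the 4 quadrants of the control section, which ranged from 1315 to 1665 CPM and enclosed the rIL7 quadrants, from 1486 to 1578 CPM. Mitotic quadrants ranged from 1787 to 2286 CPM (control) and from 1946 to 2020 CPM (rIL7). Over quadrants the control section was the more uneven for both sums. By distance from the outline, described below, the rIL7 section had the wider range for both.

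Few members differed by much. A difference of at least 25%, or its inverse in the lower direction, was used as the fold limit. None of the 17 S-phase genes and 1 of the 23 mitotic genes passed it, against 28.0% of all genes at the minimum of 20 counts and 14.9% of the 10008 genes with at least as many counts as the lowest member. In all, 13 of 17 S-phase and 9 of 23 mitotic genes were higher in rIL7, by any amount, as were 49.6% of all genes. The median log2 ratio was 0.13 over S-phase genes and -0.01 over mitotic genes, and 0.00 over all genes. Counting intervals lay above 1 for 8 S-phase and 5 mitotic genes, lay below 1 for 1 and 4, and included 1 for 8 and 14. Over all genes they lay above 1 for 22.2% and below 1 for 22.5%, and over the 10008 better covered genes for 24.5% and 26.4%. Quadrants of the sections did not overlap for Hmgb2, which was higher in rIL7, and for Cenpf, which was lower, while 9.74% of all genes were apart upwards and 9.77% downwards.

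**Figure D1:**
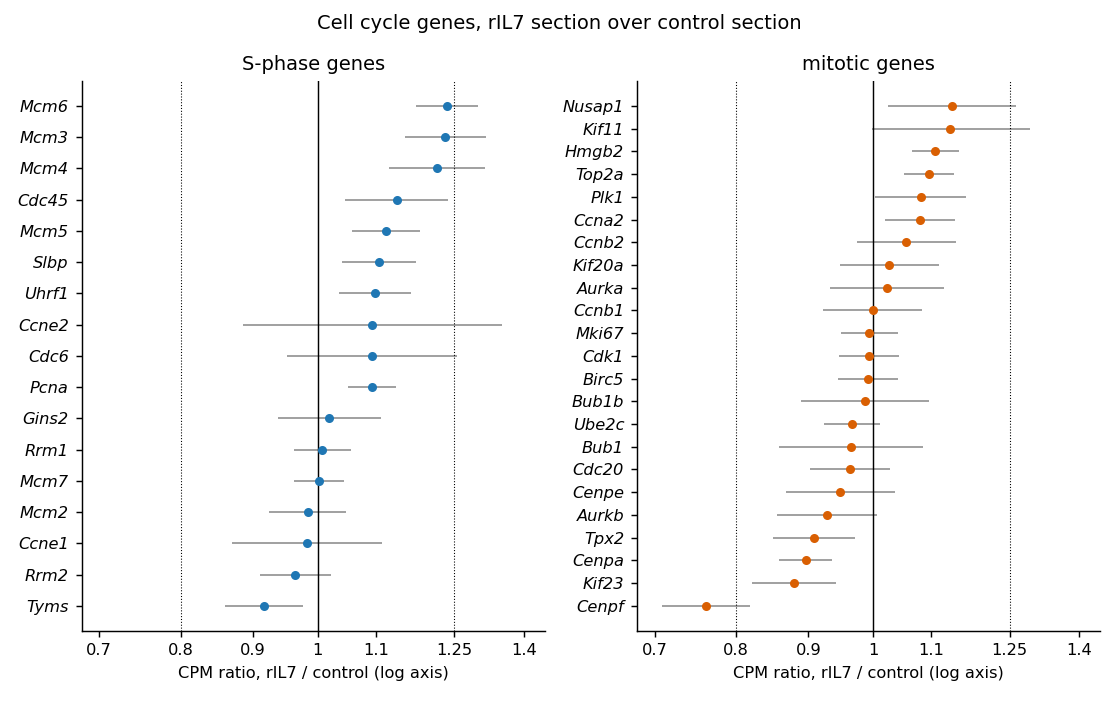
CPM ratio of the rIL7 section over the control section on a log axis for each S-phase gene (left) and each mitotic gene (right), with 95% counting intervals as bars and dotted lines at the fold limits. S-phase ratios run from 0.916 for Tyms to 1.24 for Mcm6, and mitotic ratios from 0.762 for Cenpf to 1.14 for Nusap1, with Cenpf alone past a limit.

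The plot of ratios by gene shows that the 6 subunits of the Mcm helicase, the ring that unwinds DNA ahead of the replication fork, were not alike. Mcm6 (chromosome 1, 128331575 to 128359705, GRCm38) was at 112.8 CPM (control) and 139.5 CPM (rIL7), a ratio of 1.24 (1.17 to 1.30). Mcm3 (66.3 and 81.7 CPM, ratio 1.23) and Mcm4 (47.4 and 57.6 CPM, ratio 1.22) were close to it. Mcm5 was at 97.3 and 108.8 CPM, with a ratio of 1.12 (1.06 to 1.18). Mcm2 and Mcm7 had ratios of 0.984 (0.924 to 1.05) and 1 (0.962 to 1.04), and these intervals do not reach those of Mcm3, Mcm4 and Mcm6. Summed, the helicase genes were at 599.7 and 662.4 CPM, a ratio of 1.1 (1.08 to 1.13). Cdc6, which loads the helicase, and Cdc45 and Gins2, which activate it, had ratios of 1.09, 1.14 and 1.02, and only that of Cdc45 had an interval above 1.

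Pcna, the clamp that holds the polymerase on DNA, was at 198.6 and 216.9 CPM, with a ratio of 1.09 (1.05 to 1.14). Genes of nucleotide supply were level or lower. Rrm1 and Rrm2, subunits of ribonucleotide reductase, had ratios of 1.01 (0.961 to 1.06) and 0.964 (0.909 to 1.02), the latter from 95.1 and 91.7 CPM. Tyms, which makes thymidylate, was at 83.7 and 76.6 CPM, and its ratio of 0.916 (0.860 to 0.976) was the only S-phase one with an interval below 1. The cyclin E genes, partners of Cdk2 at the entry to S-phase, were at 21.9 and 21.5 CPM for Ccne1 (0.983, 0.869 to 1.11) and at 7.15 and 7.81 CPM for Ccne2 (1.09, 0.885 to 1.35). Slbp, which binds histone mRNA, and Uhrf1, which helps pass on DNA methylation, had ratios of 1.11 (1.04 to 1.17) and 1.1 (1.03 to 1.16).

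Mki67, Cdk1 and Ccnb1 were nearly level. Mki67, which coats mitotic chromosomes, was at 148.8 and 148.0 CPM, with a ratio of 0.994 (0.949 to 1.04). Cdk1, the kinase that drives mitosis, was at 134.2 and 133.4 CPM, with a ratio of 0.994 (0.946 to 1.04). Ccnb1, its cyclin B1 partner, was at 49.4 CPM in both, with an interval of 0.922 to 1.08. Ccna2, cyclin A2, was at 96.6 and 104.2 CPM (1.08, 1.02 to 1.14), and Ccnb2, cyclin B2, had a ratio of 1.06 (0.975 to 1.14).

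Among genes of chromosome structure, Top2a and Hmgb2 had intervals above 1. Top2a, the topoisomerase that untangles DNA, was at 184.9 and 202.7 CPM, with a ratio of 1.1 (1.05 to 1.14). Hmgb2 (chromosome 8, 57511843 to 57515999), a DNA-bending chromatin protein, was at 208.8 and 231.3 CPM, with a ratio of 1.11 (1.07 to 1.15). Its quadrants ran from 194.2 to 219.5 CPM (control) and from 219.6 to 248.0 CPM (rIL7), apart by a narrow margin, and it held 10.6% and 11.7% of the mitotic UMIs. The spindle genes Nusap1 (28.1 and 32.0 CPM) and Kif11 (18.6 and 21.1 CPM) had ratios of 1.14 (1.03 to 1.26) and 1.13 (0.998 to 1.29).

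The 3 centromere genes had ratios below 1. Cenpf (chromosome 1, 189640606 to 189688107), a kinetochore protein of G2 and mitosis, was at 71.6 CPM (control) and 54.5 CPM (rIL7), 1.31-fold lower (1.22 to 1.41), with quadrants of 70.4 to 72.9 CPM and 52.1 to 57.4 CPM. Cenpa, the histone variant that marks the centromere, was at 177.4 and 159.0 CPM, 1.12-fold lower (1.07 to 1.17). Cenpe, a kinetochore motor, had a ratio of 0.948 with an interval that included 1. Kif23, a motor of cytokinesis, was at 74.6 and 65.6 CPM, 1.14-fold lower (1.06 to 1.22), and Tpx2, a spindle assembly factor, had a ratio of 0.908 (0.849 to 0.972).

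For the other mitotic genes the sections were close. The kinases Aurka, Aurkb, Plk1 and Bub1, the checkpoint protein Bub1b and the passenger protein Birc5 ran from 0.927 for Aurkb to 1.08 for Plk1, and only Plk1 had an interval above 1 (1 to 1.17). Kif20a, a motor of cytokinesis, had a ratio of 1.03. Cdc20, the activator of the anaphase-promoting complex, was at 76.9 and 74.1 CPM (0.963, 0.902 to 1.03), and Ube2c, its ubiquitin-conjugating partner, had a ratio of 0.966.

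Outside the members, 40 regulators of the cycle were read, 19 that drive it and 21 that slow it or mark checkpoints and rest. None of the 19 drivers passed the fold limit, which 14.3% of all genes passed upwards and 13.8% downwards. Of the 18 brakes with at least 20 counts, 2 passed it upwards and 2 downwards. Ccng1, cyclin G1, a known p53 target, was at 171.6 and 99.5 CPM, 1.73-fold lower in rIL7 (1.64 to 1.81), with quadrants of 148.4 to 185.7 CPM and 87.9 to 112.2 CPM. Txnip, a thioredoxin inhibitor, was at 381.2 and 274.2 CPM, 1.39-fold lower (1.35 to 1.43). Btg1, an antiproliferative gene, had a ratio of 1.26 (1.19 to 1.32), and Rb1, the retinoblastoma gene, had 1.26 from 14.5 and 18.2 CPM. In interior spots, defined next, these were 1.15 and 1.13, while Ccng1 and Txnip were 1.69-fold and 1.4-fold lower there. The p53 targets Cdkn1a, Mdm2 and Btg2 had ratios of 0.884, 0.851 and 1.06, the last with an interval of 0.937 to 1.21. In interior spots they were at 0.907, 0.869 and 0.946, below 1 as for Ccng1. A shared cause was not tested.

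A second comparison followed the genes from the tissue outline inwards. Distance was counted in grid steps from the outer outline of the main piece of tissue, and spots within 2 steps were called the edge (401 control and 330 rIL7 spots) and the rest of the main piece the interior (1806 and 1599 spots). Mitotic genes in rIL7 were at 2329 CPM in edge spots against 1905 CPM inside, a ratio of 1.22 (1.195 to 1.251), and in the control at 2023 against 1962 CPM, a ratio of 1.03 (1.01 to 1.06). S-phase genes of rIL7 were at 1589 against 1514 CPM, with a ratio of 1.05 (1.02 to 1.08), and at 1508 against 1407 CPM in the control, a ratio of 1.07 (1.04 to 1.1). With an edge of 1 step the log2 ratio of the S-phase sum in rIL7 turned to -0.031 and that of the mitotic sum in the control to -0.013, while the mitotic one in rIL7 was 0.21.

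At the edge 22 of 23 mitotic and 13 of 17 S-phase genes were higher than inside for rIL7, as were 45.2% of all genes. For the control 14 of 23 and 14 of 17 were higher, as were 40.3% of all genes. Past the fold limit were 8 mitotic and 4 S-phase genes for rIL7, where 21.0% of all genes and 12.3% of the 10008 better covered genes were, and 0 of either for the control, where 10.9% and 3.83% were. No member passed the limit downwards, which 23.7% (rIL7) and 17.5% (control) of all genes did. With an edge of 1 step 7 members of rIL7 and 3 of the control passed it upwards, and 2 and 1 downwards. Median log2 ratios for rIL7 were 0.29 (mitotic) and 0.10 (S-phase), for the control 0.06 and 0.10, and over all genes -0.04 and -0.06. The ratio was larger in rIL7 than in the control for 21 of 23 mitotic genes, 8 of 17 S-phase genes and 51.8% of all genes.

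The mitotic genes past the limit at the rIL7 edge were Ccnb1, Plk1, Hmgb2, Cenpe, Bub1b, Kif11, Ccna2 and Aurkb. Ccnb1 (chromosome 13, 100778739 to 100786486) was at 63.2 against 46.6 CPM, a ratio of 1.36 (1.18 to 1.56), and in the control at 51.4 against 48.7 CPM. Plk1, the polo kinase of mitotic entry and exit, had 1.34 (1.17 to 1.52) and in the control 1.08 (0.940 to 1.24). Hmgb2 was at 290.0 against 220.4 CPM, a ratio of 1.32 (1.23 to 1.4), and had 1.07 (0.995 to 1.15) in the control. Ccna2 had 1.28 (1.16 to 1.41) against 0.969 (0.869 to 1.08) in the control. Mki67 was at 177.9 against 142.8 CPM for rIL7 and at 153.7 against 147.5 CPM for the control. Top2a had 1.22 and in the control 1.06, and Cdk1 had 1.15 and 0.960. The intervals of the sections did not meet for Hmgb2, Ccna2, Cenpa, Mki67 and, narrowly, Cdk1, and did for Ccnb1, Plk1 and Top2a. The share of all genes whose intervals did not meet was not taken, so this describes the named genes only.

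Cenpf, Kif23 and Cdc20 had similar ratios in both sections. Cenpf was at 55.3 against 54.0 CPM for rIL7, a ratio of 1.02, and had 1.01 in the control. Kif23 had 0.919 (0.798 to 1.05) and 0.950 (0.839 to 1.07). Cdc20 had 1.19 (1.05 to 1.34) and 1.21 (1.08 to 1.35). Cenpa differed between them. It was at 187.6 against 154.1 CPM for rIL7, a ratio of 1.22 (1.12 to 1.32), and had one of the lowest ratios of the control, 0.943 (0.870 to 1.02).

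S-phase genes were split at the rIL7 edge. Ccne2 (1.35, 0.927 to 1.93), Ccne1 (1.28, 1.03 to 1.59), Rrm2 (1.28, 1.15 to 1.42) and Mcm5 (1.27, 1.15 to 1.39) passed the limit, the first on 201 rIL7 UMIs. Mcm7 (chromosome 5, 138164583 to 138172111) ran the other way, at 160.8 against 199.3 CPM (0.807, 0.741 to 0.877), and Cdc45 had 0.909 (0.771 to 1.07). Mcm6 (0.974), Pcna (1.04) and Tyms (1.04) were near even. In the control the largest ratios were those of Cdc6 (1.245, 0.967 to 1.59), Gins2 (1.23, 1.06 to 1.42) and Mcm2 (1.22, 1.09 to 1.36), and the lowest were those of Ccne1 (0.942, 0.744 to 1.18), Cenpa and Mcm7 (0.946, 0.876 to 1.02).

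**Figure D2:**
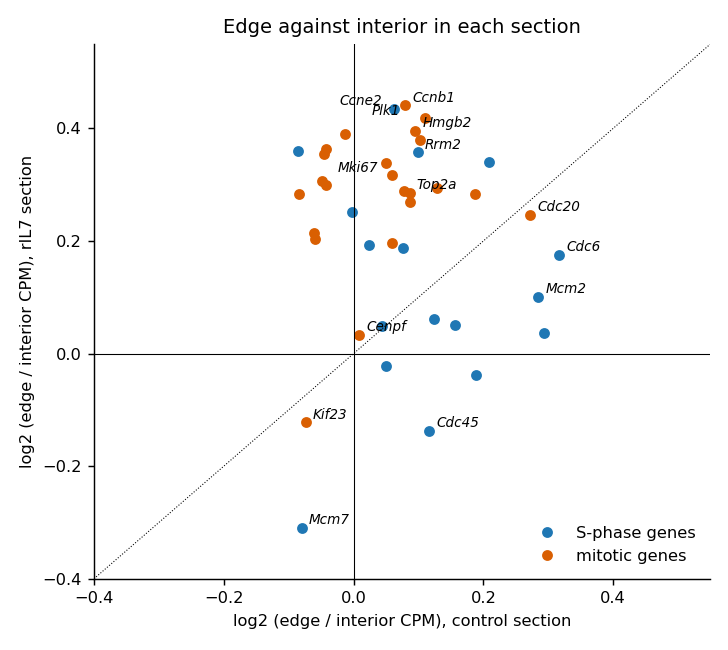
Log2 ratio of edge over interior CPM in the control section (horizontal axis) and in the rIL7 section (vertical axis), 1 point per gene, with the dotted line where both are equal. Of the 23 mitotic genes 21 lie above the line, and Mcm7 is the lowest point.

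The same zones were also compared between the sections. Edge spots of rIL7 over those of the control gave a ratio of 1.15 (1.12 to 1.19) for mitotic and 1.05 (1.02 to 1.09) for S-phase genes, and 20 of 23 and 12 of 17 genes were higher, as were 50.7% of all genes. Past the limit were 5 mitotic and 4 S-phase genes upwards (25.9% of all genes) and Cenpf downwards (22.5%). Interior spots gave 0.971 (0.957 to 0.985) and 1.08 (1.06 to 1.09), with 7 of 23 and 14 of 17 genes higher (46.8% of all genes). There Mcm6 was past the limit upwards (12.6% of all genes) and Cenpf downwards (15.1%).

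Markers of other cell types moved with the rIL7 edge. There 12 of 12 T cell genes were higher than inside, with sums of 651.4 and 265.1 CPM, as were 11 of 11 macrophage genes (10008 and 5316 CPM) and 7 of 7 MHC class II genes (7960 and 2509 CPM), and no gene of these lists was at 0 in either section. For the control these lists were at 175.4 and 154.6 CPM (9 of 12 higher), 5130 and 4886 CPM (9 of 11) and 3265 and 2751 CPM (6 of 7). Endothelial genes were at 129.0 and 55.1 CPM for rIL7 (7 of 7 higher) and 85.4 and 72.2 CPM for the control (5 of 7). Fibroblast genes were at 3478 and 1989 CPM for rIL7 (6 of 9) and 1999 and 2028 CPM for the control (5 of 9). Adipocyte genes were at 211.3 and 111.5 CPM for rIL7 and 83.7 and 112.1 CPM for the control. The part of the endothelial, fibroblast and adipocyte lists in the mitotic level was not tested. The tumor pair Rpl39l and Baiap2l1 was at 757.4 CPM (edge) and 1096 CPM (interior) for rIL7. Among rIL7 spots at or below the section's median MHC class II level the mitotic ratio was 1.28 (1.22 to 1.34, 51 edge spots), and above it 1.16 (1.13 to 1.19, 279 edge spots). For macrophage genes the same split gave 1.27 (58 edge spots) and 1.15 (272 edge spots). The splits did not equalize the lists. Above the median, edge and interior were at 9476 and 3890 CPM for MHC class II and 11638 and 7133 CPM for macrophage genes. At or below it they were at 1699 and 1615 CPM, and 4048 and 3967 CPM. With the T cell, macrophage and MHC class II genes left out of the totals, the mitotic log2 ratio at the rIL7 edge was 0.31. These lists were higher at the edge, so leaving them out could only raise the ratio. Their part in the mitotic level was not tested.

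Single steps showed different shapes for both sets. Mitotic genes of rIL7 were at 2252 CPM (2184 to 2322) at step 1, highest at step 2 with 2396 CPM (2330 to 2463) and lowest at 12 steps or more with 1706 CPM (1678 to 1735). S-phase genes of rIL7 were at 1495 CPM (1440 to 1553) at step 1, highest at step 5 with 1765 CPM (1701 to 1832) and lowest at 12 steps or more with 1402 CPM (1376 to 1428). In the control, mitotic genes kept within 1892 to 2088 CPM and S-phase genes within 1330 to 1529 CPM, with the lowest level of each at 12 steps or more.

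The balance of the phases differed accordingly. S-phase genes made up 42.0% (41.6 to 42.3) of the cell cycle UMIs of the control and 43.6% (43.3 to 44.0) of those of rIL7, and over quadrants the share ran from 41.5% to 42.4% and from 43.2% to 44.8%, without overlap. For rIL7 the share was 39.9% (38.7 to 41.1) at step 1 and 45.1% (44.5 to 45.7) at 12 steps or more. For the control it was 43.8% (42.7 to 45.0) and 41.3% (40.5 to 42.0), the opposite order.

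**Figure D3:**
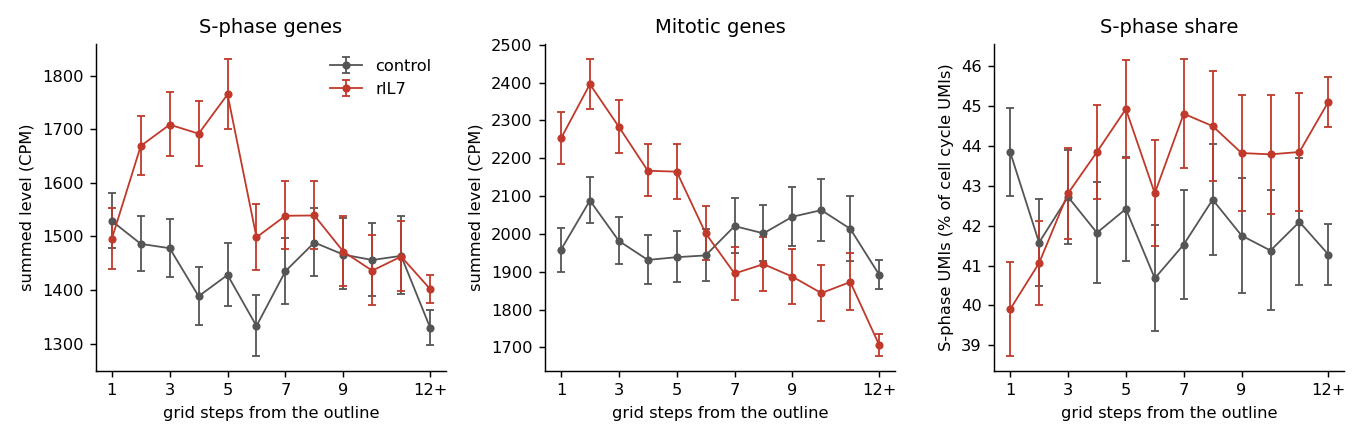
Summed CPM of S-phase genes (left) and mitotic genes (middle) and the S-phase share of cell cycle UMIs in percent (right) at each grid step from the tissue outline, with 12 steps or more as the last point and 95% counting intervals as bars. The vertical axes do not start at 0. The mitotic level of rIL7 runs from 2396 CPM at step 2 to 1706 CPM in the core, and that of the control stays within 1892 to 2088 CPM.

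The core was also compared with the zone just beneath the edge. Steps 3 and 4 over 12 steps or more gave a ratio above 1 for 23 of 23 mitotic and 16 of 17 S-phase genes of rIL7 and for 56.9% of all genes, with 14 and 6 members past the fold limit upwards, where 23.0% of all genes were. For the control 17 of 23, 12 of 17 and 42.3% of all genes were above 1, with 1 mitotic and 2 S-phase genes past the limit upwards, where 16.2% of all genes were. Ccne2 alone of the control members was past it downwards, at 0.716 (0.399 to 1.251), as were 20.9% of all genes. Ccnb1 was at 60.2 against 38.9 CPM for rIL7, a ratio of 1.55 (1.30 to 1.85), and at 47.6 against 44.1 CPM for the control. Mcm5 had 1.49 (1.33 to 1.68) and in the control 1.18 (1.02 to 1.35), Mki67 had 1.36 (1.23 to 1.51) and 1.05, and Cenpf had 1.08 and 1.12.

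Other measures moved with this zone. Hypoxia genes were at 3137 CPM (steps 3 and 4) and 4371 CPM (12 steps or more) for rIL7, and at 3269 and 3740 CPM for the control. Median depth was 12044 and 15552.5 UMIs per spot for rIL7 and 10812.5 and 8571 for the control, and skeletal muscle genes were at 15.1 and 158.1 CPM in the control. Their part in the core levels was not tested.

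The third comparison was made spot by spot, after each spot had been thinned to 5900 UMIs (2002 control and 1869 rIL7 spots, with 217 and 81 shallower spots left out). A thinned spot held a median of 8 S-phase UMIs (control, 0 to 23) or 9 (rIL7, 1 to 23). For mitotic genes the median was 11 UMIs in both, from 0 to 34 and from 2 to 30. In the control 2 spots had 0 S-phase UMIs and 2 had 0 mitotic UMIs, and no rIL7 spot had 0 of either, so these transcripts were found across both sections. Variance over mean, which is 1 for counting error alone, was 1.38 and 1.29 for S-phase and 1.71 and 1.64 for mitotic genes.

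**Figure D4:**
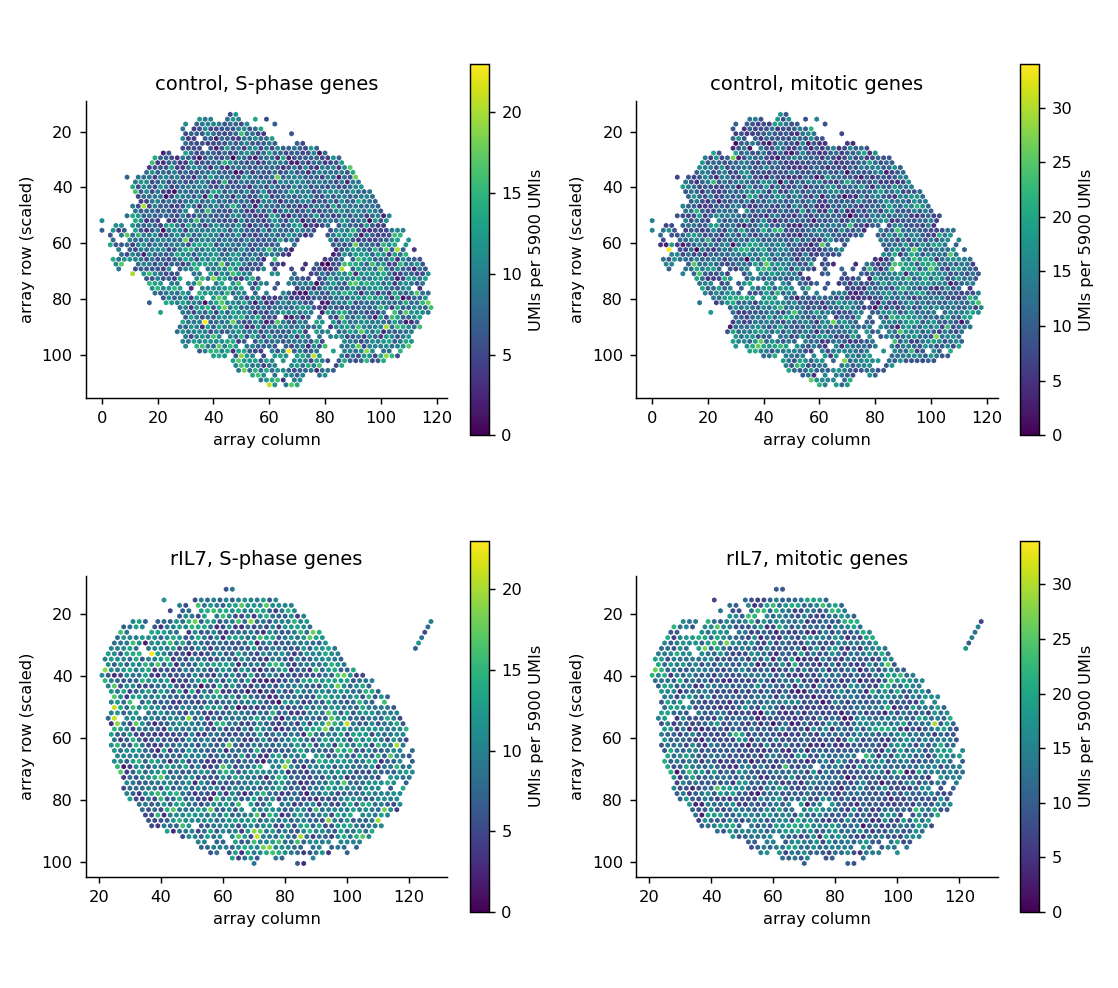
S-phase UMIs (left) and mitotic UMIs (right) in each spot thinned to 5900 UMIs, at the spot's array position, for the control (top) and rIL7 (bottom) sections, with spots below that depth left blank. Medians are 8 and 9 UMIs for S-phase genes and 11 and 11 UMIs for mitotic genes.

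The maps of thinned UMIs were described by Spearman's rho across spots, which share a library and border each other. Between the S-phase and mitotic sums rho was 0.279 (control) and 0.236 (rIL7). The mitotic genes, split alternately by alphabetical order, gave 0.269 and 0.252 between their parts, and the S-phase genes 0.154 and 0.133. With the mean of adjacent spots the mitotic sum had a rho of 0.365 (1954 spots) and 0.354 (1843 spots), and the S-phase sum 0.313 and 0.271. Single genes were sparse, with rIL7 means from 0.0423 UMIs per spot for Ccne2 to 1.37 for Hmgb2. A mitotic gene's rho with the rest of its own set exceeded that with the S-phase sum for 20 (control) and 18 (rIL7) of 23 genes, and reached 0.182 for Top2a in the control. An S-phase gene's rho with its own set exceeded that with the mitotic sum for 6 and 7 of 17. These counts do not compare the sets evenly. In both sections the S-phase sum held fewer UMIs per thinned spot than the mitotic sum, so counting error lowers rho with it more. The S-phase parts of the split were likewise smaller than the mitotic ones. Whether S-phase genes go together less than mitotic genes was not tested.

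Spots with more hypoxia transcripts, which encode glucose transport, glycolysis and other responses to low oxygen, held fewer division transcripts in both sections. Spearman's rho was -0.180 (S-phase) and -0.170 (mitotic) for the control, and -0.223 and -0.225 for rIL7. Within the rIL7 edge no such relation was seen, with 0.0252 and 0.00220 over 280 spots. Within the control edge rho was -0.378 and -0.306 over 326 spots. S-phase genes were at 1228 CPM (control) and 1312 CPM (rIL7) in the 25% of spots highest for hypoxia, and at 1547 and 1634 CPM in the 25% lowest, ratios of 0.793 (0.768 to 0.819) and 0.803 (0.780 to 0.827). Mitotic genes had ratios of 0.826 (0.804 to 0.849) and 0.796 (0.776 to 0.817). Past the limit downwards were 10 of 17 S-phase and 8 of 23 mitotic genes for the control, where 22.0% of all genes were, and 10 and 11 for rIL7, where 31.7% were. The S-phase share was 41.4% in hypoxia-high and 42.4% in hypoxia-low spots of the control, and 43.3% and 43.1% for rIL7.

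Edge and hypoxia were also read together. Among rIL7 spots at or below the median hypoxia level the mitotic ratio of edge over interior was 1.14 (1.11 to 1.18), and above it 1.28 (1.23 to 1.33). For the control these were 1.09 (1.05 to 1.12) and 0.984 (0.952 to 1.02). The split did not equalize hypoxia between edge and interior of rIL7. Hypoxia genes were at 1925 and 2228 CPM at or below the median and at 5690 and 4882 CPM above it.

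Spots rich in the tumor pair Rpl39l and Baiap2l1 were lower in mitotic transcripts. Spearman's rho with the mitotic sum was -0.111 (control) and -0.123 (rIL7). Within the rIL7 edge the sign was the other way, at 0.126 over 280 spots, and within the control edge rho was -0.187 over 326 spots. In the 25% of spots highest for the pair, mitotic genes were at 1839 and 1833 CPM, and in the 25% lowest at 2152 and 2125 CPM. Past the limit downwards were 8 of 23 mitotic genes for the control, where 15.9% of all genes were, and 4 of 23 for rIL7, where 21.6% were.

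Of the immune lists, macrophage and MHC class II genes had different relations in the sections and T cell genes had like ones. Spearman's rho of the mitotic sum was -0.0502 (control) and 0.169 (rIL7) with macrophage genes, -0.00582 and 0.196 with MHC class II genes, and 0.105 and 0.112 with T cell genes. In the 25% of spots highest for macrophage genes, mitotic genes were at 1891 and 2148 CPM, and in the 25% lowest at 2014 and 1814 CPM. All 23 mitotic and 16 of 17 S-phase genes were higher in macrophage-high rIL7 spots, as were 53.0% of all genes, with 7 and 7 past the limit (26.5% of all genes), and 7 and 8 were higher for the control (47.8%), with 0 and 1 past it (21.6%). For MHC class II genes 6 mitotic and 3 S-phase genes were past the limit for rIL7 (26.0% of all genes) and 0 and 1 for the control (22.0%). Edge spots made up 45.6% of the macrophage-high and 5.95% of the macrophage-low rIL7 spots, and 25.1% and 11.9% for the control.

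Within the rIL7 edge (280 thinned spots) the sign was the other way. The mitotic rho was -0.252 with macrophage, -0.204 with T cell and -0.180 with MHC class II genes there, and 0.139, 0.0862 and 0.142 inside (1578 spots). The control edge (326 spots) gave -0.0194, 0.0907 and 0.141.

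**Figure D5:**
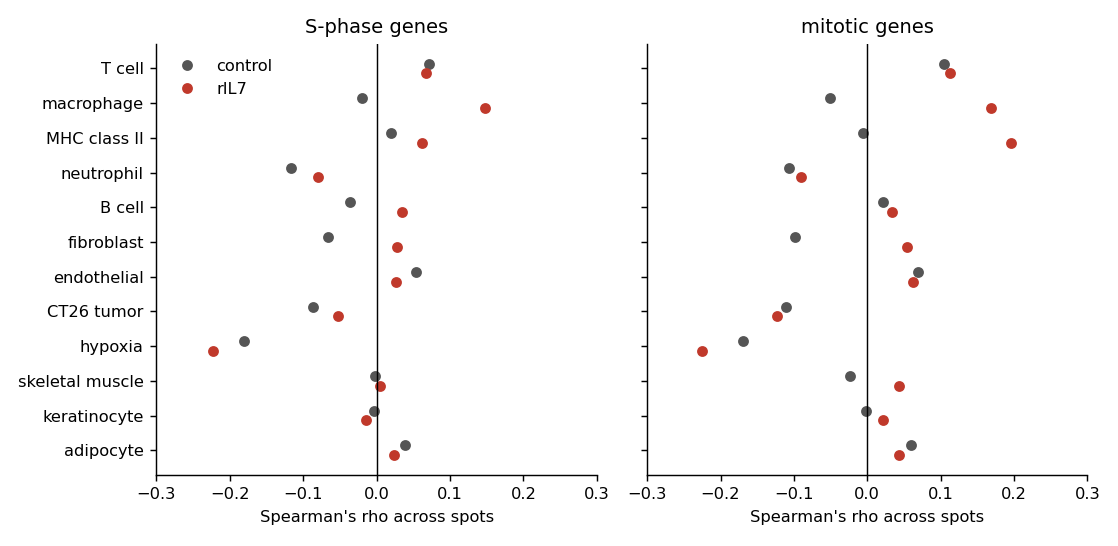
Spearman's rho across thinned spots between each marker list and the S-phase sum (left) or the mitotic sum (right) in the control and rIL7 sections. Hypoxia is negative in both sections, from -0.170 to -0.225, and for the mitotic sum MHC class II runs from -0.00582 (control) to 0.196 (rIL7).

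The plot of rho by marker list was followed by a ranking of 7856 other genes with at least 0.1 thinned UMIs per spot in both sections, by the lower of their rho values. Most like the mitotic sum were Ppia (0.170 for the control and 0.207 for rIL7), Nme1 (0.159 and 0.159), Ube2s (0.193 and 0.145), Ly6e, Selenoh, Stmn1, Lgals1, Eif5a, Ccnd1 and Ran. Most like the S-phase sum were Ran (0.187 and 0.128), Cfl1 (0.177 and 0.126), Ifi27l2a (0.126 and 0.139), Eif5a, Selenoh, Stmn1, Snrpg, Tuba1c, Bst2 and Tubb4b. Ccnd1, which encodes cyclin D1 of the G1 phase, is the only cell cycle regulator read above among them.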

How the data were processed

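RNA of 2 tumor sections was measured on Visium slides, 1 section per group. The authors counted genes per spot with Space Ranger 1.1.0 against mm10 (GRCm38), per the submitters' processing notes, and raw UMI counts are what the deposited matrices hold. Spots over tissue were kept with over 200 genes and under 10% mitochondrial UMIs, as in the study, which removed 2 control spots and 1 rIL7 spot. UMIs were summed over spots and divided by the section total (CPM per 1000000 UMIs). Poisson intervals were exact for sums and Clopper-Pearson intervals for ratios and shares, at 95%. Thinning drew UMIs without replacement. Holes inside the tissue did not count as outline, and adjacent spots were averaged where at least 3 of 6 were measured. Ratios and intervals were tested on simulated counts, grid steps on a simulated disk and thinning on measured rIL7 spots. Tools were Python 3.11.15, scipy 1.17.1, edgeR 4.0.16 and DESeq2 1.42.0, the last 2 for alternative scaling only. No p-value was computed.

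The members and lists were chosen with earlier results of these data known. Every member is named; full values go to a fixed set of well-known members and to the 3 largest and 3 smallest ratios per phase and per section. Other lists held T cell, macrophage, MHC class II, neutrophil, B cell, fibroblast, endothelial, CT26 tumor, hypoxia, skeletal muscle, keratinocyte and adipocyte genes. A hypoxia entry, Ca9, matched no symbol. Alternatives were no or a stricter spot filter, other scalings, equal spot weights, interior spots only, other edge widths, other thinning and leaving out the most abundant members. Coordinates are from RefSeq on GRCm38, matched by symbol for 40 of 40 members. A search of promoter motifs was planned and not run, since no promoter sequence was used here.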

Additional observations from a re-analysis of the deposited data

How the results depend on the processing

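No paired analysis was possible because each group has 1 section, and no replicate could be left out. Over the summary values, 108 of the alternative values moved by less than their interval (counts: less than 1.5 times) and 36 moved further. Another 2 changed sign from an interval that excluded 0. The causes were not tested. For rho this interval took spots as independent, which bordering spots of 1 section are not, and it served only as a yardstick here. The mitotic sum of rIL7 over control had an interval that included 0. A median was read against the counting interval of its middle gene alone, Cdk1 for mitotic and Cdc6 for S-phase genes. Both of these included 0, and neither is an interval for a median over genes. Other scalings took the mitotic log2 ratio of the sum from -0.004 to 0.007 or 0.008. They took the mitotic median from -0.009 to 0.002 or 0.003. Members' ratios kept within their interval for 39 of 40 with spots weighted equally (Top2a moved) and 40 of 40 in the other settings. With spots weighted equally, the log2 ratio of rIL7 over control of the mitotic sum was -0.023, 1 member passed the fold limit upwards, edge over interior was 0.15 (S-phase, control), 0.080 (mitotic, control) and 0.25 (mitotic, rIL7), and at the edge 3 control members passed upwards and 1 rIL7 member downwards. In interior spots the mitotic log2 ratio was -0.043, 1 member passed upwards, the rIL7 S-phase share was 44.3% and the rIL7 mitotic rho with adjacent spots 0.301. Without Hmgb2 the mitotic log2 ratio was -0.023, and without Pcna and Hmgb2 the S-phase share was 41.0% (control) and 42.9% (rIL7). An edge of 1 step reversed the mitotic log2 ratio of the control to -0.013 and the S-phase one of rIL7 to -0.031, gave 0.21 for mitotic genes of rIL7, and put 3 control and 7 rIL7 members past the limit upwards and 1 and 2 downwards. An edge of 3 steps gave 0.12 for S-phase genes of rIL7 and 1 control member upwards. Leaving mitochondrial, haemoglobin and ribosomal protein genes out of the totals put 2 control members past the limit upwards and 1 rIL7 member downwards. Not thinned, rho of S-phase with mitotic sums was 0.380 (control) and 0.378 (rIL7), with adjacent spots 0.427 and 0.372 (S-phase) and 0.448 and 0.468 (mitotic). Thinned to 3000 UMIs these were 0.187 and 0.139, 0.220 and 0.168, and 0.278 and 0.301, and a second draw gave 0.320 between the sums of the control. Leaving T cell, macrophage and MHC class II genes out of the totals was chosen after seeing the data and gave mitotic log2 edge ratios of 0.31 (rIL7) and 0.05 (control). The sums of these lists were higher at the edge of both sections, so this could only raise the ratios.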

Other observations

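Neutrophil genes had a rho of -0.116 (S-phase) and -0.107 (mitotic) for the control and -0.0792 and -0.0902 for rIL7. Their summed level at 12 steps or more was 274.9 CPM (control) and 330.8 CPM (rIL7), against 84.3 and 203.6 CPM at the edge. Endothelial genes had a rho of 0.0690 and 0.0617 with the mitotic sum, and fibroblast genes -0.0985 and 0.0548. B cell genes were at 3.83 and 3.96 CPM, too few UMIs for a relation to be read. Keratinocyte genes were at 58.5 and 37.6 CPM, with a rho of -0.00143 and 0.0213 with the mitotic sum. Adipocyte genes were at 106.4 and 142.5 CPM, with a rho of 0.0596 and 0.0437. Skeletal muscle genes were at 55.7 and 3.42 CPM, with a rho of -0.0242 for the control. For rIL7 they held 88 UMIs, fewer than the 102 of B cell genes, so their rho of 0.0430 is likewise not read.

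The genes most opposed to both sums in both sections were Spp1 (osteopontin), Fn1 (fibronectin) and Cebpd (a transcription factor of stress and inflammation). Spp1 had a rho of -0.235 (control) and -0.261 (rIL7) with the mitotic sum and -0.208 and -0.186 with the S-phase sum. Il1rl1, the receptor of IL-33, was opposed to the mitotic sum (-0.253 and -0.233), and Bnip3, a gene induced by hypoxia, to the S-phase sum (-0.178 and -0.205).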
